A study of Rattus norvegicus with 22 samples.

Results

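The 10 arrays described here compared injured with uninjured spinal cord in rats that received no tamoxifen (TMX): 5 rats with a contusion, SCI/TMX-, and 5 rats with sham surgery, Sham/TMX-, out of the 22 arrays of the series, 1 array per rat. The arrays were chosen by their titles alone, and no measured value was used to choose them. All 10 rats were adult male Long-Evans rats anaesthetised with ketamine at 80 mg/kg together with xylazine at 8 mg/kg, given tramadol at 5 mg/kg against pain and injected once intraperitoneally with the vehicle, ethyl alcohol in corn oil, 30 min after surgery. The SCI/TMX- rats had a laminectomy at level T9 of the spine, and a rod of 10 g was dropped on the exposed cord from 50 mm with the MASCIS impactor. In Sham/TMX- rats the soft tissue was opened and the bone left intact, so that the effects of contusion and of laminectomy cannot be told apart in any difference below. A cord segment of 20 mm, centred on the injury or taken at the same place in sham rats, was removed 24 h after surgery, stripped of dura and divided lengthwise, and only RNA with an integrity number of at least 7 was hybridized. The Clariom S array reports 1 signal for each of 23188 transcripts, given here on the log2 scale, on which a difference of 1 is a doubling. The mean signal differs between transcripts for reasons of the probes, so levels are compared between rats and not between genes.

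A contusion of the cord tears vessels and membranes at once, and in the hours that follow plasma, red cells and leukocytes enter the tissue. Resident glia respond to debris and to blood proteins through pattern receptors, and cytokines of the interleukin 6 and interleukin 1 families then act through STAT3 and NF-kappaB. Astrocytes and vessel cells change their secreted matrix and their cytoskeleton over the same day, while neurons and oligodendrocytes near the impact die. In whole tissue, a transcript falls when the cells that make it are lost and also when those cells make less of it, and an array of the whole segment cannot tell apart fewer cells of a type and less RNA per cell.

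The 2 groups were far apart, and the injured rats also differed among themselves. Over the 10 arrays, the first principal component held 53.47% of the variance and placed the injured rats between 26.75 and 37.14 and the sham rats between -34.25 and -28.82. The next component held 15.14%, and along it animals 15c (36.63) and 13c (16.26) lay apart from animals 16c, 17c and 18c (-23.64 to -17.94), while the sham rats spanned -5.18 to 8.77. Animals 13c and 15c are replicates 1 and 2 of SCI/TMX-, and list counts of 5 or more that moved by more than 1.5 times without them are given both ways. Values by rat are listed for animals 13c, 15c, 16c, 17c and 18c in SCI/TMX-, and for animals 1a, 3a, 4a, 5a and 6a in Sham/TMX-, in this order. Markers of the cord were present in both groups: the 9 neuronal markers averaged 8.63 to 8.94 over the injured rats and 9.32 to 9.42 over the sham rats, and the 4 measured oligodendrocyte markers 11.04 to 11.24 over the injured and 11.39 to 11.51 over the sham rats. As a floor, 3 liver genes that cord should lack (Alb, Apoa1 and Cyp2e1) averaged 2.68 to 3.06 over injured and 2.89 to 3.40 over sham rats.

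A transcript counted as called where its adjusted p was below 0.05 and its log2 fold change larger than 1 in size, in a linear model over the 4 groups of the series (limma, Benjamini-Hochberg adjustment over all transcripts). By this rule 459 transcripts were called higher in SCI/TMX- (1.98% of those tested) and 249 were called lower (1.07%). Without animals 13c and 15c the counts were 535 higher and 177 lower. With the adjusted p alone, 2958 transcripts were higher (12.8%) and 4130 lower (17.8%), so that the small changes went down more often and the large ones up. Beyond a log2 fold change of 2 in size there were 90 higher transcripts against 3 lower ones, and beyond 3 there were 28 against 0. In 2078 transcripts (8.96%) every injured rat lay above every sham rat, and in 2794 (12%) every injured rat lay below. The ranges of the groups were separate for 443 of the 459 transcripts called higher and for 243 of the 249 called lower.

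Transcripts that were called higher and those called lower also lay at different signals. The median transcript called higher had a mean signal of 6.97 in SCI/TMX- and 5.29 in Sham/TMX-, while the median transcript called lower had 6.22 in SCI/TMX- and 7.48 in Sham/TMX-. Ordered by sham signal and divided into 4 equal bins, the bin of lowest signal held 0 transcripts called lower and 56 called higher, and the bin of highest signal held 151 called lower and 73 called higher. A transcript that is near the floor in sham cord can only show a rise, so the 2 counts are not on the same footing.

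**Figure D1:**
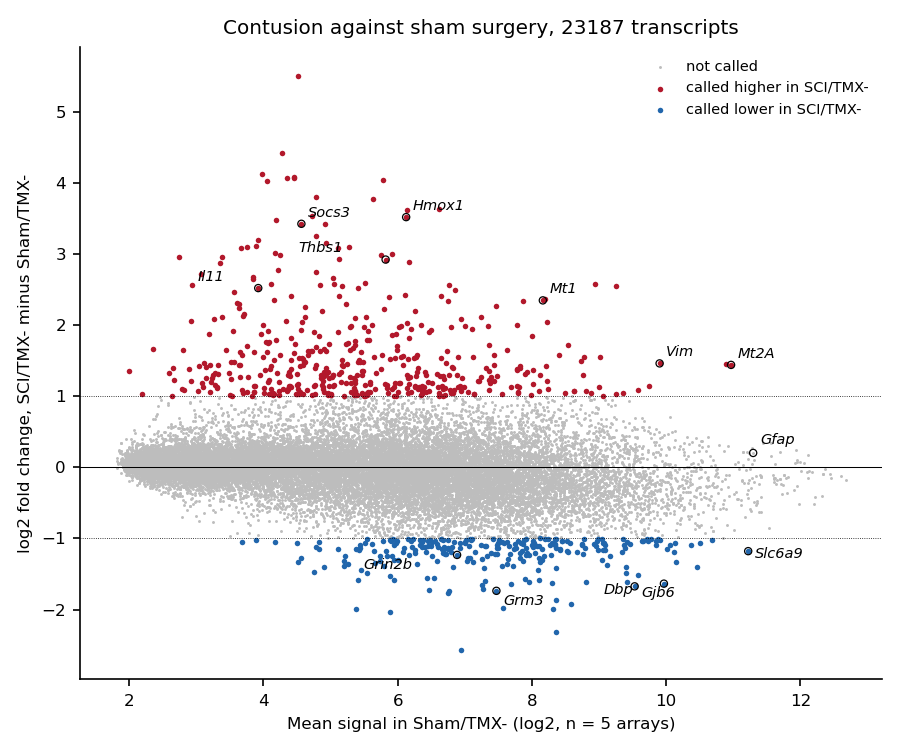
Each point is a transcript, with its mean log2 signal in the 5 Sham/TMX- rats on the horizontal axis and its log2 fold change, SCI/TMX- minus Sham/TMX-, on the vertical axis. Red points were called higher and blue points called lower, the dotted lines mark log2 fold changes of 1 and -1, and the red points reach further from 0 and sit at lower signals than the blue ones.

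Of the 23188 transcripts, 15049 carry a symbol of the platform annotation and 138 carry only the name that the study's table of called genes gives, which names a transcript because it was called. Each of the 15037 named genes was taken at its transcript of highest mean signal. Part of them stand in 79 lists by function or cell type and 13 families by symbol, and a gene can stand in several lists or in none. Among these named genes 367 (2.44%) were called higher and 193 (1.28%) lower. With the adjusted p alone 2040 (13.6%) were higher and 2959 (19.7%) lower, and these 2 shares are the background for every list below. The ranges were separate with injured rats above in 9.62% of the named genes and with injured rats below in 13.6%. The words rose and fell are used below only for an adjusted p under 0.05, and the median of a list stands beside the median of all named genes, -0.02. At least 50% of the members rose in 22 lists, and at least 50% fell in 12 lists. Counts of list members below 5 can move by more than 1.5 times when single rats are left out. In 6 of the 79 lists a count of 5 or more also did so.

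**Figure D2:**
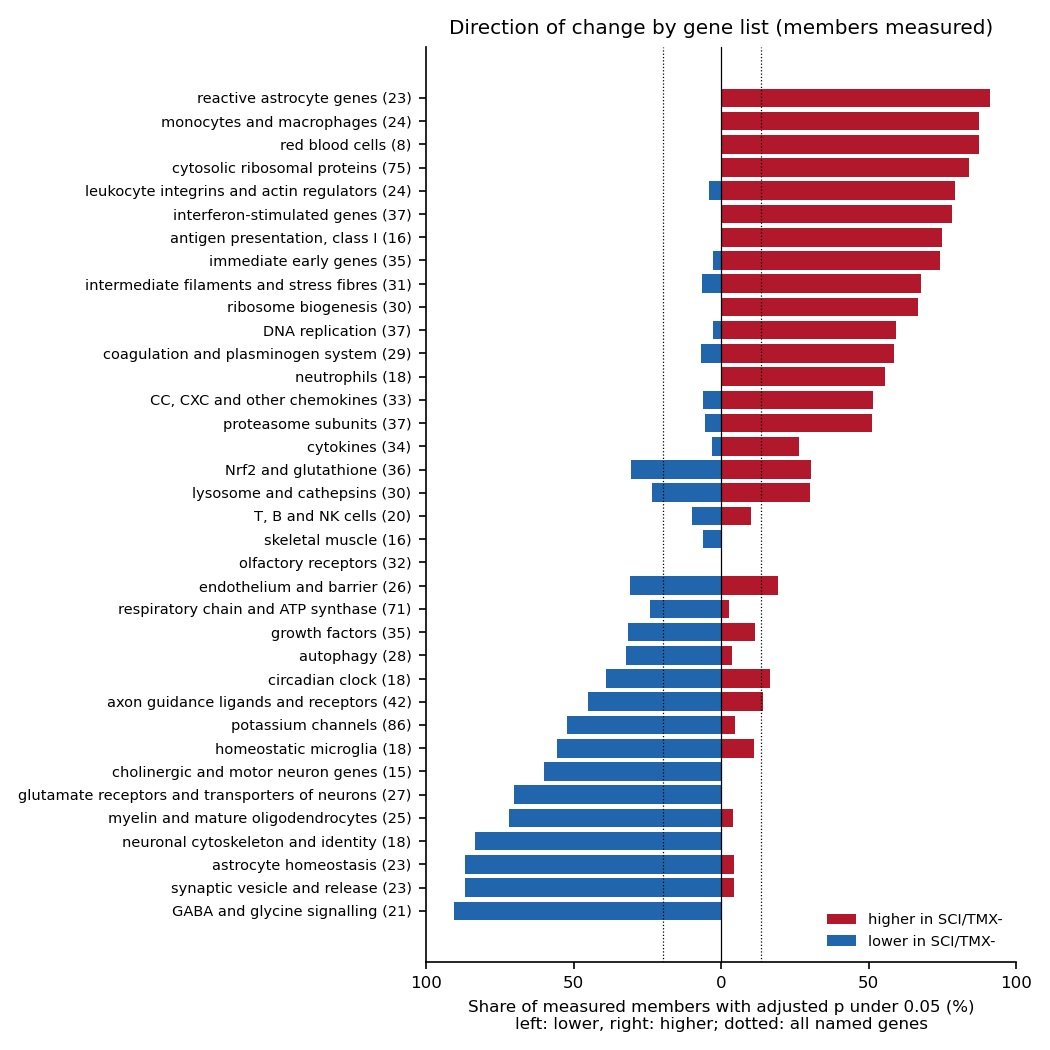
Bars to the right give the share of each list's measured members that rose in SCI/TMX- and bars to the left the share that fell (adjusted p under 0.05), with the number measured in brackets. Dotted lines mark the shares over all named genes, 13.6% higher and 19.7% lower; the lists of reactive astrocyte, monocyte and ribosomal protein genes reach far to the right, and those of GABA and glycine signalling, the synaptic vesicle and astrocyte homeostasis far to the left.

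A few cytokines rose strongly, and most did not pass the test. Of 34 cytokine genes measured, 9 rose, led by members of the interleukin 6 and interleukin 1 families, and 1 fell. Il11, a cytokine of the interleukin 6 family, had signals of 6.11, 6.03, 6.54, 6.75 and 6.78 in SCI/TMX- rats, against 4.16, 4.03, 3.91, 3.76 and 3.75 in Sham/TMX- rats (log2 fold change 2.52 ± 0.17, SE, adjusted p = 4.39e-11). The lowest injured rat stood well above the highest sham rat. Il1rn encodes the antagonist that blocks the interleukin 1 receptor. Its signals were 6.08, 6.08, 6.28, 7.21 and 6.80 in SCI/TMX- rats, against 3.74, 3.90, 3.73, 4.07 and 3.75 in Sham/TMX- rats (log2 fold change 2.65 ± 0.18, SE), with animals 17c and 18c highest, and in no rat did the groups meet. Il1b, the agonist at the same receptor, rose less, with 4.15, 3.45, 4.09, 4.25 and 5.40 in SCI/TMX- rats, against 2.76, 3.39, 3.03, 2.85 and 3.41 in Sham/TMX- rats (log2 fold change 1.18); animal 15c at 3.45 lay only just above the highest sham rat. Il6 and Lif, further ligands of the interleukin 6 family, rose by 2.11 and 1.31. Tnf, the archetypal early cytokine, had 4.18, 4.12, 3.69, 4.20 and 3.98 in SCI/TMX- rats, against 3.71, 3.59, 4.08, 4.05 and 3.62 in Sham/TMX- rats, and the groups overlapped (log2 fold change 0.22, adjusted p = 0.309). The 1 cytokine that fell was Il12a, a subunit of interleukins 12 and 35, with 4.76, 5.34, 5.22, 5.81 and 5.13 in SCI/TMX- rats, against 6.31, 5.97, 6.20, 6.25 and 6.17 in Sham/TMX- rats. Every injured rat was below every sham rat for Il12a. The remaining 24 members did not pass, and Il21, a product of T cells, was among them with a log2 fold change of -0.17.

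Chemokines drew the same uneven picture, with 17 of 33 higher and 2 lower. Ccl3, which attracts monocytes, had 8.21, 7.66, 7.93, 8.75 and 8.70 in SCI/TMX- rats, against 4.59, 4.80, 4.89, 4.46 and 4.84 in Sham/TMX- rats (log2 fold change 3.53). All 5 injured rats were above all 5 sham rats, and 17c and 18c were the highest. Ccl7, a ligand of Ccr1, Ccr2 and Ccr3, rose by 3.48, and Cxcl11, an interferon-induced ligand of Cxcr3, rose by 2.96. Cxcl2, which attracts neutrophils through Cxcr2, had 6.53, 6.13, 6.29, 8.13 and 7.88 in SCI/TMX- rats, against 4.49, 3.52, 4.55, 4.38 and 4.13 in Sham/TMX- rats. The groups did not overlap for Cxcl2, but 17c and 18c stood more than 1 unit above the other injured rats. Cx3cl1, the neuronal ligand of the microglial receptor Cx3cr1, had 6.46, 6.70, 6.78, 6.52 and 6.58 in SCI/TMX- rats, against 7.53, 7.15, 7.27, 7.34 and 7.59 in Sham/TMX- rats, and no injured rat reached the lowest sham rat. Ccl27, an epithelial chemokine in skin, fell by 0.57.

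Among receptors for these ligands, 12 of 29 cytokine receptor genes rose and 2 fell, and without animals 13c and 15c the number that fell was 4. Csf2rb, the chain shared by the receptors of interleukins 3 and 5 and of granulocyte-macrophage colony-stimulating factor, had 7.15, 6.67, 7.45, 7.48 and 7.38 in SCI/TMX- rats, against 4.28, 4.35, 4.06, 4.37 and 4.15 in Sham/TMX- rats. Its log2 fold change of 2.98 was the highest of the list, and the groups were separate by more than 2 units. Il1r2, a decoy that binds interleukin 1 without signalling, rose by 2.57, while Il1rap, the signalling partner chain, rose by 0.92. Il7r, a receptor of lymphocytes, fell by 0.64, and Lifr, the receptor for leukemia inhibitory factor, fell by 0.47. In the TNF receptor family 6 of 18 genes rose, among them Tnfrsf12a, the receptor for the ligand Tweak (2.40), Tnfrsf1b (1.19) and Tnfrsf1a (1.08).

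Some genes that carry or restrain these signals inside the cell rose. Of 21 genes of the JAK-STAT pathway, 12 rose and 1 fell. Socs3, which is induced by STAT3 and blocks its receptors, had 7.81, 7.48, 8.30, 8.24 and 8.12 in SCI/TMX- rats, against 4.71, 4.69, 4.21, 4.18 and 5.04 in Sham/TMX- rats (log2 fold change 3.42 ± 0.19, SE, adjusted p = 7.27e-13), a 10.7-fold rise. The gap between the groups exceeded 2 units in every pair of rats. Stat3 itself had 9.23, 8.90, 9.30, 9.42 and 9.15 in SCI/TMX- rats, against 7.76, 7.95, 7.67, 7.96 and 8.11 in Sham/TMX- rats, a smaller rise (1.31) that was also free of overlap. Of 14 subunits and feedback genes of NF-kappaB, 5 rose, led by the inhibitors Nfkbia (1.47) and Bcl3 (1.31), while Nfkb1 rose by 0.35 and the inhibitors Nfkbib and Nfkbie had log2 fold changes of -0.11 and -0.07, short of the test. Immediate early genes, which are transcribed within minutes of a stimulus without new protein, were often higher at 24 h: 26 of 35 rose and 1 fell, with a median log2 fold change of 0.94. Cebpd, a factor of the acute phase response, had 7.46, 7.52, 7.73, 7.59 and 7.32 in SCI/TMX- rats, against 4.80, 4.51, 4.99, 4.81 and 4.77 in Sham/TMX- rats. Its spread was small in both groups, and the log2 fold change was 2.75 ± 0.13 (SE). Myc, a driver of growth and ribosome synthesis, had 7.76, 7.77, 8.21, 8.15 and 8.34 in SCI/TMX- rats, against 5.29, 4.85, 5.05, 5.00 and 5.40 in Sham/TMX- rats (log2 fold change 2.92). Both groups were narrow for Myc, and every injured rat was above 7.7 where no sham rat exceeded 5.5. Jun and Junb, subunits of the AP-1 factor, rose by 1.53 and 1.87, and Zfp36, which hastens the decay of cytokine messengers, rose by 1.98.

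The promoters of the genes called higher were searched for short binding motifs of these factors, in windows of 250 bases before to 50 after the start of the gene (RefSeq, build GRCr8). A promoter was held for 12435 named genes, of which 280 were called higher and 158 called lower. On either strand, the kappaB motif GGNNTTTCC was found in 11.1% of the promoters of genes called higher, in 5.7% of those called lower and in 6.2% of all. The AP-1 motif TGANTCA was found in 14.6%, 7.59% and 6.44% in the same order, the STAT motif TTCCNGGAA in 2.86%, 1.27% and 1.29%, and the interferon response motif GAAANNGAA in 12.1%, 7.59% and 8.15%. Other motifs had shares among the genes called higher nearer those of all promoters: TGACGTCA (the cyclic AMP response element) 2.86% against 2.56%, GAANNTTC (heat shock) 7.14% against 6.56%, TGACNNNGC (antioxidant response) 13.6% against 13.5%, and CACGTG (E-box) 7.14% against 7.93%. These are letter matches without a test, and motifs that share letters can match at the same place. To show where such a match lies, the promoter of the gene with the highest log2 fold change that held each of the first 4 motifs, and was not chosen for another motif, is given with the match in capitals, 5′ to 3′ on the strand of the gene. Cxcl11 (chr14:15973478-15973777, + strand, match 73 bases before the start), Tnfaip6, which encodes a hyaluronan-binding protein of inflamed tissue (chr3:56911148-56911447, + strand, 192 before), Rbm3, which encodes an RNA-binding protein of the cold response (chrX:17020655-17020954, + strand, 143 before), and Gldn, described with the root markers (chr8:63575020-63575319, + strand, 98 before), read:
Cxcl11, kappaB: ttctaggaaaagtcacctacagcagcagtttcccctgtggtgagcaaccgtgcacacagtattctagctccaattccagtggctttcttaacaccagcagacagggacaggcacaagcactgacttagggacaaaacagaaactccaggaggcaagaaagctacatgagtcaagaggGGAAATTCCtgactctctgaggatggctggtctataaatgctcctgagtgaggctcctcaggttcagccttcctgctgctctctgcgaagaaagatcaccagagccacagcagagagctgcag
Tnfaip6, AP-1: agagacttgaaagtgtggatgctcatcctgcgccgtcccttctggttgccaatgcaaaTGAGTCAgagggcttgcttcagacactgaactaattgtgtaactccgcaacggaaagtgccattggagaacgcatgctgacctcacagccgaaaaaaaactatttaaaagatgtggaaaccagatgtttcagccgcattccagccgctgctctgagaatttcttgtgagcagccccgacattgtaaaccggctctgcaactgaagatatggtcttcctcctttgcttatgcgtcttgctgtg
Rbm3, STAT: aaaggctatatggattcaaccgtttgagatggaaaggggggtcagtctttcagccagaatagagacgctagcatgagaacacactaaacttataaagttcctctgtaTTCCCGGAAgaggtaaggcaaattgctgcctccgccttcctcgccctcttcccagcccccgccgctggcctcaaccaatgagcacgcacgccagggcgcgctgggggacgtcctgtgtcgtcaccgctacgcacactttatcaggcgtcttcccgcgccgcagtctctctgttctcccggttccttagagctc
Gldn, interferon response: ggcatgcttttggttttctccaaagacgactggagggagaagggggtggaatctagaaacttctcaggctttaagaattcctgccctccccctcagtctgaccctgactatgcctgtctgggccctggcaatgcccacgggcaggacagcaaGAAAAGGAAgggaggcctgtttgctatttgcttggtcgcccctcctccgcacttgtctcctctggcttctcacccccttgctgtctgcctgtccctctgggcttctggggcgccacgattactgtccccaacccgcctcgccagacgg
Cxcl11 had 5.19, 5.21, 6.38, 5.38 and 6.33 in SCI/TMX- rats, against 2.88, 2.92, 2.29, 2.75 and 2.85 in Sham/TMX- rats, and Tnfaip6 had 8.58, 8.56, 8.37, 8.58 and 8.54 in SCI/TMX- rats, against 4.54, 4.37, 4.74, 4.19 and 4.47 in Sham/TMX- rats. For both genes the lowest injured rat was above the highest sham rat. Rbm3 rose by 2.27 and Gldn by 3.25.

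Sensors of microbes and debris rose in part, 15 of 28 members against 1 that fell. Lbp and Cd14, which hand bacterial lipid to Toll-like receptor 4, rose by 3.10 and 3.09. Cd14 had 7.83, 7.99, 8.27, 8.65 and 8.24 in SCI/TMX- rats, against 4.71, 4.85, 5.29, 5.59 and 5.11 in Sham/TMX- rats. The groups were separate by more than 2 units, with 17c highest. Tlr3, which senses double-stranded RNA, had 4.19, 4.34, 5.24, 5.22 and 5.48 in SCI/TMX- rats, against 5.97, 5.89, 6.09, 6.09 and 6.39 in Sham/TMX- rats; no injured rat reached a sham value, and animals 13c and 15c were about 1 unit below the other injured rats. Tlr9, which senses DNA, had a log2 fold change of -0.27 without a pass, and outside the list Tril, a glial accessory of Toll-like receptors 3 and 4, fell by 1.64. C-type lectins of myeloid cells rose in 11 of 25 members, among them Clec4a3 (2.00), Clec5a (1.88) and Clec4e (1.39).

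Interferon-stimulated genes rose in 29 of 37 members and fell in 0, with a median log2 fold change of 0.96. Rsad2, an antiviral enzyme also called viperin, had 6.16, 6.37, 6.82, 7.21 and 7.16 in SCI/TMX- rats, against 3.29, 3.93, 3.84, 3.57 and 3.66 in Sham/TMX- rats (log2 fold change 3.09 ± 0.29, SE). The lowest injured value, 6.16 in animal 13c, was above the highest sham value. Mx2 and Ifitm1, which block viral entry or replication, rose by 2.58 and 2.59, and Gbp2, a guanylate-binding protein, by 2.19. Oas2 and Oas3 of the same response had log2 fold changes of -0.07 and 0.01. The interferon genes Ifnb1 and Ifng had log2 fold changes of 0.20 and 0.06, and neither passed.

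Antigen presentation genes are given by class. Class I genes rose in 12 of 16 members (median 0.47), including Tap1, the peptide transporter, with 6.81, 7.00, 6.81, 6.88 and 7.29 in SCI/TMX- rats, against 5.99, 5.80, 5.81, 5.90 and 5.68 in Sham/TMX- rats, and the immunoproteasome subunits Psmb9 (1.02) and Psmb10 (0.89). Tap1 did not overlap between the groups. RT1-A1, a classical class I heavy chain, rose by 0.79, but the heavy chains are near-identical copies whose probes may share signal. Class II genes rose in 5 of 15, a count that was 3 without animal 15c, 16c or 5a in turn and at most 7 without any single rat. Those with the largest statistics were the exchange factors RT1-DMa (0.97) and RT1-DMb (0.76) and the invariant chain Cd74 (1.02).

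Receptors for antibody and their signalling chains rose in 12 of 19 members with 0 lower. Lilrb4, an inhibitory receptor of myeloid cells, had 6.37, 6.39, 6.93, 7.15 and 7.42 in SCI/TMX- rats, against 3.61, 3.65, 4.05, 3.63 and 3.82 in Sham/TMX- rats (log2 fold change 3.10). Animals 16c, 17c and 18c were highest, and all injured rats were above all sham rats. Fcgr2b, the inhibitory receptor for immunoglobulin G, rose by 1.94, and the kinase Fgr by 1.30. In the complement list 8 of 22 rose and 2 fell (0 fell without 13c and 15c). C1qb, a chain of the first component, had 8.14, 8.02, 8.38, 8.11 and 8.25 in SCI/TMX- rats, against 6.85, 6.54, 6.84, 6.85 and 7.34 in Sham/TMX- rats, and the groups were separate. C3, the central component, had 6.13, 5.62, 6.89, 6.80 and 6.22 in SCI/TMX- rats, against 6.96, 7.53, 6.63, 7.08 and 7.36 in Sham/TMX- rats; the groups overlapped, and its adjusted p of 0.00207 for a log2 fold change of -0.78 had no counterpart without animals 13c and 15c (log2 fold change -0.48, adjusted p = 0.0516). In the inflammasome list 5 of 12 rose, a count that was 3 without animal 13c, 3a, 4a or 5a. Casp4, the sensor of cytosolic bacterial lipid, had 6.38, 5.89, 7.58, 7.33 and 7.64 in SCI/TMX- rats, against 5.54, 5.46, 5.18, 5.66 and 5.55 in Sham/TMX- rats, with 13c and 15c lowest among the injured rats.

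Enzymes that make reactive or lipid mediators rose selectively. Of 17 genes of oxidase, nitric oxide and arginine metabolism, 11 rose and 0 fell, with Ncf4, a cytosolic subunit of the phagocyte oxidase, at 1.39, Odc1, which starts polyamine synthesis, at 1.27, and Arg1 at 1.20. In the eicosanoid list 10 of 25 rose and 4 fell. Pla2g2a, a secreted phospholipase, had 5.87, 5.82, 5.90, 6.24 and 6.33 in SCI/TMX- rats, against 4.03, 4.01, 3.48, 3.25 and 3.05 in Sham/TMX- rats. Even the lowest injured rat was more than 1 unit above the highest sham rat. The pair of cyclooxygenases moved in opposite directions: Ptgs2, the inducible form, rose by 2.41 ± 0.23 (SE), while Ptgs1, the constitutive form, had 4.39, 4.13, 5.39, 4.89 and 5.16 in SCI/TMX- rats, against 5.59, 5.56, 5.44, 5.69 and 5.89 in Sham/TMX- rats. For Ptgs1 every injured rat lay below every sham rat, with 16c only just below. Ptges, the terminal prostaglandin E synthase, rose by 1.74, and Alox5ap, which presents arachidonate to the leukotriene pathway, by 1.79. Pla2g7, which breaks down platelet-activating factor, fell by 0.84.

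Mir147, among the called transcripts with the largest rises, is the precursor of a microRNA known from activated mouse macrophages. The transcript had 5.79, 5.35, 5.20, 6.27 and 6.34 in SCI/TMX- rats, against 3.48, 2.90, 2.56, 3.41 and 3.01 in Sham/TMX- rats (log2 fold change 2.72), and injured and sham rats did not overlap. It is named by the study's table, and the array reports the transcript and not the mature form. The mature sequence of rno-miR-147 (RefSeq, GRCr8, chr3:130176322-130176343, + strand) is printed with its seed, bases 2 to 8, in capitals.
rno-miR-147: gUGUGCGGaaaugcuucugcua

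Leukocyte and red cell markers rose, and those of muscle, fat and lymphocytes mostly did not pass. Monocyte and macrophage genes rose in 21 of 24 members and fell in 0 (median 1.36); the 5 defining markers averaged 7.25 to 8.36 over the injured rats and 5.65 to 5.97 over the sham rats. Msr1, a scavenger receptor, had 7.80, 7.96, 8.72, 8.70 and 8.49 in SCI/TMX- rats, against 5.01, 4.66, 4.81, 4.65 and 5.44 in Sham/TMX- rats (log2 fold change 3.42 ± 0.19, SE). The injured rats were 2 units or more above every sham rat. Adgre1, which macrophages share with microglia, had a log2 fold change of -0.26 and did not pass. Neutrophil genes rose in 10 of 18, and their 4 measured markers averaged 5.46 to 6.11 over injured and 3.93 to 4.43 over sham rats. The part of these cells in the immune lists was not tested. Slpi, a protease inhibitor of neutrophils and epithelia, had 5.92, 6.63, 6.05, 7.25 and 6.78 in SCI/TMX- rats, against 3.63, 4.14, 3.83, 4.02 and 3.61 in Sham/TMX- rats, with 17c highest, and S100a9 and S100a8, the subunits of calprotectin, rose by 2.57 and 2.15. Ltf, a granule protein, and Padi4, which modifies histones in neutrophils, had log2 fold changes of -0.13 and -0.14 and did not pass.

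Red cell genes rose in 7 of 8 members, and in 4 without animals 13c and 15c. Hbb had 9.93, 9.57, 10.37, 10.66 and 10.73 in SCI/TMX- rats, against 6.88, 7.02, 7.34, 6.20 and 5.66 in Sham/TMX- rats; the injured rats spanned more than 1 unit. The globins are near-identical copies, and Hba-a1 rose by 2.58. The 3 red cell markers averaged 8.25 to 9.58 over injured and 5.81 to 7.00 over sham rats. Of 6 platelet genes only Pf4 passed (0.77). Lymphocyte genes gave little signal: 2 of 20 rose and 2 fell, the 4 T cell markers averaged 3.24 to 3.44 over injured and 2.96 to 3.36 over sham rats. Cd4, which T helper cells and also rat macrophages and microglia carry, had 5.40, 4.81, 6.50, 5.79 and 6.00 in SCI/TMX- rats, against 7.18, 6.97, 7.24, 7.49 and 7.62 in Sham/TMX- rats, and it fell in every injured rat below the sham range. Of 9 mast cell genes none passed in either direction; 16 skeletal muscle genes gave 1 lower (Pvalb, -0.54, which interneurons also express). Of 11 genes of Schwann cells and roots 2 rose. Gldn, which anchors sodium channels at nodes of peripheral nerve, had 7.68, 7.35, 8.20, 8.59 and 8.32 in SCI/TMX- rats, against 4.62, 4.43, 5.65, 4.83 and 4.35 in Sham/TMX- rats. The groups were separate, although animal 4a was the highest sham rat by almost 1 unit. Prx, the other measured protein of peripheral myelin, had a log2 fold change of -0.32.

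Phagocytic and lysosomal genes rose more often than named genes as a whole, and their falls were near the background. Of 30 lysosome genes 9 rose (30%, against 13.6% of all named genes) and 7 fell (23.3%, against 19.7%). Gpnmb, a glycoprotein of lipid-laden macrophages, rose by 2.42, Ctsz by 1.21 and Ctsc by 1.20. Tpp1, a lysosomal peptidase that is mutated in human childhood neuronal ceroid lipofuscinosis, had 7.94, 7.56, 8.55, 8.42 and 8.34 in SCI/TMX- rats, against 9.27, 9.15, 9.24, 9.41 and 9.66 in Sham/TMX- rats, and its groups did not overlap. Ctsf, a cathepsin mutated in an adult form of that disease, fell by 0.47. Ppt1, a lysosomal thioesterase mutated in its infantile form and not among the 30 genes of the list, fell by 1.40. In the list of scavenger and engulfment receptors 8 of 23 rose (34.8%) and 5 fell (21.7%). Cd163, which takes up haemoglobin bound to haptoglobin, rose by 1.73, and Axl by 1.11, whereas Mfge8, the bridge to dying cells made by astrocytes, fell by 0.58. Lipid genes moved both ways, with 8 of 27 higher (29.6%) and 10 lower (37%). Plin2, which coats lipid droplets, rose by 1.99, Fabp5 by 1.14 and Ch25h, the enzyme of 25-hydroxycholesterol, by 2.22. Lcat, the astrocyte enzyme that esterifies cholesterol on lipoproteins, fell by 1.87 ± 0.17 (SE). Genes of cholesterol synthesis mostly did not pass, 2 of 19 higher and 2 lower (0 lower without 13c and 15c).

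Genes of the extracellular matrix rose more often than named genes as a whole. Of 39 matricellular proteins and proteoglycans 16 rose (41%, against 13.6% of all named genes) and 10 fell (25.6%, against 19.7%). Thbs1, which is stored in platelets and also made by injured glia and vessels, had 8.53, 8.08, 8.42, 9.51 and 9.17 in SCI/TMX- rats, against 6.33, 4.65, 5.93, 5.79 and 6.40 in Sham/TMX- rats (log2 fold change 2.92). Animal 3a was low among the sham rats for Thbs1, and the groups did not overlap. Thbs2, Tnc and Ccn1 rose by 2.89, 3.11 and 3.02. The lecticans, the chondroitin sulfate proteoglycans of the nervous system, divided. Ncan had 9.76, 9.87, 9.82, 9.90 and 9.56 in SCI/TMX- rats, against 7.69, 7.88, 7.74, 7.75 and 7.84 in Sham/TMX- rats, and Vcan had 7.42, 7.45, 7.70, 7.83 and 7.87 in SCI/TMX- rats, against 6.60, 6.75, 6.57, 6.65 and 6.48 in Sham/TMX- rats. Both rose with no overlap. Bcan had 8.72, 8.60, 8.25, 7.92 and 8.23 in SCI/TMX- rats, against 8.96, 9.23, 9.22, 9.23 and 9.20 in Sham/TMX- rats, and every injured rat was below every sham rat. Hapln4, a link protein of perineuronal nets, fell by 0.83, and Lum, a small proteoglycan of fibroblasts, by 0.88. Collagens and laminins rose in 7 of 16 members and fell in 0, among them Col4a1 of the basement membrane (1.04) and Col8a1 (1.05), while outside that list P4ha3, which hydroxylates collagen, rose by 1.80 and the crosslinking enzyme Tgm2 by 1.40.

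Metalloproteinase genes and their inhibitors rose more often than they fell. 16 of 31 metalloproteinase genes and inhibitors were higher and 2 lower. Adamts1, which cleaves versican, had 8.09, 7.57, 8.47, 8.09 and 8.25 in SCI/TMX- rats, against 4.88, 5.46, 5.02, 4.71 and 4.62 in Sham/TMX- rats (log2 fold change 3.16 ± 0.16, SE). More than 2 units lay between the groups. Mmp19 rose by 1.84. Timp4, the inhibitor most frequent in brain and heart, had 6.81, 6.27, 6.71, 6.74 and 6.79 in SCI/TMX- rats, against 8.13, 8.11, 8.52, 8.40 and 8.32 in Sham/TMX- rats, and fell in all 5 rats below the sham range, while Mmp15, a membrane-bound enzyme, fell by 0.83. The coagulation and plasminogen list rose in 17 of 29 members and fell in 2 (1 without 13c and 15c). Procr, the endothelial receptor for protein C, had 6.51, 5.92, 6.17, 6.37 and 6.13 in SCI/TMX- rats, against 3.43, 3.18, 3.85, 3.17 and 3.09 in Sham/TMX- rats. Its log2 fold change of 2.88 ± 0.15 (SE) was the highest of the list among the genes reported. Anxa2 and S100a10, which together bind plasminogen at the cell surface, rose by 1.72 and 1.66. Serpine2, a glial thrombin inhibitor, fell by 0.72.

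Growth factor genes fell in 11 of 35 members (31.4%, against 19.7% of all named genes). They rose in 4 (11.4%, near the 13.6% of all named genes). Hbegf, a ligand of the epidermal growth factor receptor, had 8.70, 8.39, 9.12, 8.94 and 8.73 in SCI/TMX- rats, against 6.74, 6.86, 7.21, 6.51 and 6.65 in Sham/TMX- rats, and all injured rats were above 8.3 where no sham rat exceeded 7.3. Fgf2 and Angpt2 rose by 0.94 and 1.15. Igf1, which supports oligodendrocytes and neurons, had 5.34, 5.94, 6.22, 5.76 and 5.61 in SCI/TMX- rats, against 7.09, 6.87, 7.07, 6.88 and 7.29 in Sham/TMX- rats, with no overlap. Fgf9 and Vegfb fell by 1.12 and 1.01. In the TGF-beta, activin and BMP list 15 of 42 rose and 10 fell. Eng, a co-receptor for TGF-beta, and Tgif1, a corepressor of its Smads, rose by 0.86 and 0.95. The BMP ligand Bmp4 had 5.61, 5.83, 6.60, 5.87 and 6.51 in SCI/TMX- rats, against 7.25, 6.88, 7.46, 7.48 and 7.60 in Sham/TMX- rats, and Smad9, a transducer of BMP signals, had 4.91, 5.24, 5.35, 4.27 and 4.85 in SCI/TMX- rats, against 6.20, 6.26, 6.33, 6.06 and 5.96 in Sham/TMX- rats. Neither gene overlapped between the groups. In the Notch and Wnt list 8 of 44 rose (5 without animals 13c and 15c) and 9 fell; Notch1 and its target Hey1 had log2 fold changes of 0.50 and -0.44.

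Genes of the contractile and filament cytoskeleton rose in 21 of 31 members (median 0.69). Tpm3, a tropomyosin of non-muscle cells, had 10.04, 9.98, 10.09, 10.15 and 9.98 in SCI/TMX- rats, against 8.68, 8.79, 8.76, 8.76 and 8.80 in Sham/TMX- rats (log2 fold change 1.29 ± 0.07, SE). Every injured rat lay more than 1 unit above every sham rat. Flnc, a filamin of muscle and of stressed cells, had 8.04, 7.73, 8.11, 8.38 and 7.95 in SCI/TMX- rats, against 6.08, 6.16, 5.87, 5.68 and 6.47 in Sham/TMX- rats, and its groups were separate by more than 1 unit. Vim, the intermediate filament of reactive glia and fibroblasts, had 11.38, 11.35, 11.38, 11.33 and 11.38 in SCI/TMX- rats, against 9.77, 9.22, 10.06, 10.27 and 10.19 in Sham/TMX- rats, with sham animal 3a lowest and the injured rats within 0.1 unit of each other. Tuba1c, a tubulin of dividing and growing cells, rose by 1.37. Myl9, the myosin light chain of smooth muscle, fell by 0.67. Integrins and actin regulators of leukocytes rose in 19 of 24, with Itgam at 1.59, Itga5, the fibronectin receptor, at 1.62, Msn at 1.43 and Capg at 1.64; Evl, an actin regulator that neurons also express, fell by 0.32. S100 proteins and annexins rose in 11 of 25, with Anxa1 at 2.30, and fell in 5 (3 without animals 13c and 15c), including the astrocyte protein S100b (-0.48).

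**Figure D3:**
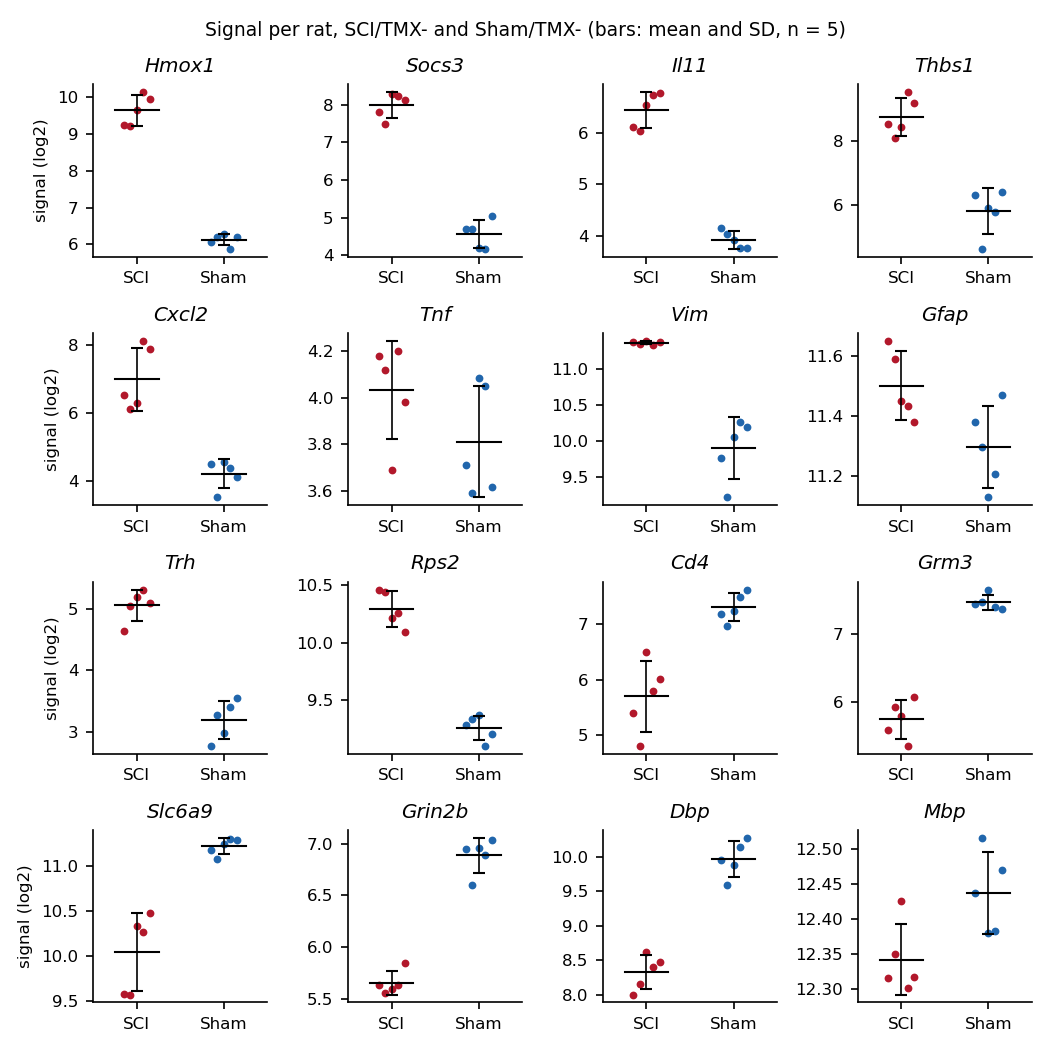
Each panel gives the log2 signal of 1 gene in the 5 SCI/TMX- rats (red, left) and the 5 Sham/TMX- rats (blue, right), with bars for the mean and SD; vertical scales differ between panels and do not start at 0. Hmox1, Socs3, Il11, Thbs1, Cxcl2, Vim, Trh and Rps2 lie higher in every injured rat, Cd4, Grm3, Slc6a9, Grin2b and Dbp lie lower in every injured rat, and Tnf, Gfap and Mbp overlap.

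Stress genes responded by pathway and not as a whole. In the Nrf2 and glutathione list 11 of 36 rose and 11 fell. Hmox1, which breaks down haem and is a target of Nrf2, had 9.25, 9.23, 9.65, 10.14 and 9.96 in SCI/TMX- rats, against 6.07, 6.21, 6.28, 5.88 and 6.20 in Sham/TMX- rats (log2 fold change 3.52 ± 0.15, SE), a 11.5-fold rise. Nearly 3 units separated the lowest injured from the highest sham rat. Txn1 and Mgst2 rose by 0.70 and 1.64, whereas the glutathione transferases Gstm1 and Gstm2, which astrocytes express, fell by 0.83 and 0.89. Hmox2, the constitutive haem oxygenase of neurons, fell by 0.68, and Slc40a1, the iron exporter ferroportin, had 3.81, 3.67, 4.97, 4.51 and 4.83 in SCI/TMX- rats, against 5.74, 6.04, 6.16, 6.07 and 5.43 in Sham/TMX- rats, with no overlap and animals 13c and 15c lowest. Mt1 and Mt2A, metallothioneins that bind zinc and copper, rose by 2.35 and 1.44, but these copies are alike in sequence. Heat shock genes rose in 9 of 30 and fell in 6. Hspb1, a small chaperone of filaments, had 9.88, 10.04, 10.52, 10.45 and 10.17 in SCI/TMX- rats, against 7.75, 7.83, 7.93, 7.79 and 8.06 in Sham/TMX- rats. It rose in every rat beyond the sham range (log2 fold change 2.34 ± 0.11, SE), and Hspb8, its partner, rose by 0.83. Hspa4l and Hspa12a, larger chaperones that are frequent in neurons, fell by 0.70 and 0.81. Of 38 genes of endoplasmic reticulum and amino acid stress 10 rose, with Atf4 at 0.82, Ppp1r15a at 1.23 and Mthfd2 at 0.90, and 5 fell (3 without animals 13c and 15c), among them Herpud1 (-0.47) and Psat1 (-0.73).

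Glucocorticoid-induced genes rose in 12 of 22 and fell in 2. Gadd45g, a stress gene that binds Cdk1, had 7.64, 7.23, 7.92, 8.00 and 7.70 in SCI/TMX- rats, against 4.83, 5.32, 5.13, 4.90 and 4.98 in Sham/TMX- rats (log2 fold change 2.67). All injured rats were above 7.2, and all sham rats below 5.4. Tsc22d3, a classical glucocorticoid target also known as Gilz, fell by 0.81, and Nr3c1, the receptor, fell by 0.41. In the hypoxia and glycolysis list 13 of 36 rose and 7 fell. Ldha, the lactate dehydrogenase subunit that favours lactate, had 9.94, 9.86, 9.80, 10.10 and 10.20 in SCI/TMX- rats, against 8.53, 8.30, 8.43, 8.24 and 8.50 in Sham/TMX- rats, and the groups were more than 1 unit apart. Slc16a3, which exports lactate, rose by 1.29, Pfkfb3 by 1.13 and Hk2 by 1.07, while Pfkm, the phosphofructokinase of muscle and neurons, fell by 0.81. Of 23 p53 targets 10 rose and 5 fell (2 without animals 13c and 15c): Gadd45a, Mdm2 and Ccng1 rose by 1.63, 0.98 and 0.58, and Rrm2b fell by 0.92. Cell death genes rose in 12 of 32 and fell in 0, among them Ripk3, the kinase of necroptosis (1.17), and the survival genes Mcl1 (0.94) and Bcl2a1 (1.27).

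Genes of protein synthesis rose by small amounts in most members. Of 75 cytosolic ribosomal proteins 63 rose (84%, against 13.6% of all named genes) and 0 fell, with a median log2 fold change of 0.46. Rps2 had 10.46, 10.44, 10.21, 10.26 and 10.09 in SCI/TMX- rats, against 9.28, 9.33, 9.37, 9.10 and 9.21 in Sham/TMX- rats (log2 fold change 1.04 ± 0.09, SE), and Rplp0 had 9.71, 9.56, 9.52, 9.54 and 9.38 in SCI/TMX- rats, against 8.59, 8.66, 8.54, 8.61 and 8.64 in Sham/TMX- rats. In both genes all injured rats exceeded all sham rats. Rpl3l, the copy specific to muscle, had a log2 fold change of -0.13 and did not pass. Ribosomal protein genes have many processed copies in the genome, so that single members are uncertain. Under the other array scalings the median of this list lay between 0.47 and 0.52, and it was 0.44 without animals 13c and 15c. Ribosome biogenesis genes rose in 20 of 30 and fell in 0 (median 0.51). Npm1, a nucleolar chaperone, had 9.93, 10.12, 9.75, 9.78 and 9.75 in SCI/TMX- rats, against 8.94, 8.88, 8.79, 8.69 and 8.69 in Sham/TMX- rats, and lay above the sham range in every injured rat. Ddx21 and Nop58, an RNA helicase and a core protein of nucleolar particles, rose by 1.12 and 0.99, whereas Ubtf and Rrn3, which recruit RNA polymerase I, had -0.01 and -0.01.

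Proteasome subunits rose in 19 of 37 members and fell in 2, or in 1 without 13c and 15c (median 0.24), and apart from the immunoproteasome the rises were small, such as Psmb2 (0.62) and Psmb4 (0.56). DNA replication genes rose in 22 of 37. Mcm6, a subunit of the replicative helicase, had 6.13, 5.70, 5.64, 6.08 and 5.68 in SCI/TMX- rats, against 4.02, 4.22, 3.84, 3.94 and 4.38 in Sham/TMX- rats. The 5 injured rats were above 5.6 and the sham rats below 4.4. Pcna, the clamp of the polymerase, rose by 0.88, Rfc4 by 0.76 and Ccnd1, the cyclin of early G1, by 0.84, while Ccne1 had -0.13 without a pass. Mitosis genes followed less clearly: 12 of 29 rose, but 6 without animals 13c and 15c and 7 without sham animal 1a. Mki67, the usual marker of dividing cells, rose by 1.14, and Ccnb1 and Kif20a, which peak at division itself, had log2 fold changes of -0.07 and -0.09.

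Of 71 subunits of the respiratory chain and ATP synthase 17 fell and 2 rose. The share that fell, 23.9%, was near the 19.7% of all named genes, and the median log2 fold change was -0.06. Ndufs7, Ndufs1 and Ndufs4 of complex I fell by 0.51, 0.47 and 0.40. Cox6a2, the muscle and heart form of a subunit of complex IV, had 6.23, 6.54, 6.75, 6.50 and 6.44 in SCI/TMX- rats, against 5.52, 5.67, 5.07, 5.63 and 5.57 in Sham/TMX- rats, and lay above the sham range in all 5 injured rats. Autophagy genes fell in 9 of 28 and rose in 1: Ulk1, the kinase that starts the process, had 5.79, 5.49, 6.25, 6.15 and 6.10 in SCI/TMX- rats, against 6.64, 6.61, 6.77, 6.91 and 6.91 in Sham/TMX- rats, and its groups were separate, while Atg13 and Wipi1 fell by 0.67 and 0.62. Of 18 clock genes 3 rose and 7 fell. Dbp, an output factor of the clock, had 8.00, 8.16, 8.62, 8.40 and 8.48 in SCI/TMX- rats, against 9.95, 9.60, 9.88, 10.14 and 10.27 in Sham/TMX- rats, and Nfil3, the repressor that competes with Dbp for the same sites, had 7.06, 6.50, 6.96, 7.11 and 6.99 in SCI/TMX- rats, against 5.19, 5.64, 5.64, 5.35 and 5.27 in Sham/TMX- rats. The 2 moved in opposite directions with no overlap in either. Per3 fell by 1.02, and Bhlhe40 rose by 0.97. The hour of surgery and of tissue collection is not given in the sources used here.

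Most lists of neuronal signalling genes held more falls than the background of 19.7%. Of 18 genes of neuronal cytoskeleton and identity 15 fell and 0 rose (median -0.55). Elavl4, an RNA-binding protein of neurons, had 6.73, 6.82, 7.42, 7.24 and 7.39 in SCI/TMX- rats, against 8.13, 8.06, 8.19, 8.18 and 8.05 in Sham/TMX- rats. All 5 injured rats lay below the sham range, and the falls of Mapt, Rbfox3 and Thy1 were 0.81, 0.78 and 0.72. Tubb3, a tubulin of neurons, had a log2 fold change of -0.16 without a pass. Genes of synaptic vesicles fell in 20 of 23: Syn3 had 6.15, 6.52, 6.92, 7.01 and 7.05 in SCI/TMX- rats, against 8.11, 7.80, 7.98, 7.93 and 7.96 in Sham/TMX- rats, Syn2 fell by 0.75 and Vamp1 by 0.62. In Syn3 animals 13c and 15c were the lowest, and all 5 lay below the sham range. The 1 vesicle gene that rose was Syt4, a synaptotagmin that is induced by activity, with 8.60, 8.88, 8.62, 8.46 and 8.68 in SCI/TMX- rats, against 8.28, 8.09, 8.25, 8.26 and 8.19 in Sham/TMX- rats; its shift of 0.44 was small but present in every rat.

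Receptors for glutamate fell in 19 of 27 genes and rose in 0. Grin2b, an NMDA receptor subunit, had 5.63, 5.56, 5.60, 5.64 and 5.85 in SCI/TMX- rats, against 6.95, 6.60, 6.96, 6.89 and 7.03 in Sham/TMX- rats (log2 fold change -1.23 ± 0.13, SE). The injured rats lay within 0.3 units of each other and below every sham rat. Grin3a, Gria3 and Gria4 fell by 1.16, 1.08 and 0.82, whereas Homer1, a scaffold of which one form is induced by activity, and Grm2 had 0.18 and 0.22 without a pass. Inhibitory genes were lowered as a nearly complete list: 19 of 21 fell (90.5%, against 19.7% of all named genes), with a median of -0.76. Gabrb1, a subunit of the GABA-A receptor, had 6.58, 6.34, 6.47, 6.30 and 6.60 in SCI/TMX- rats, against 7.73, 7.63, 7.59, 7.66 and 7.78 in Sham/TMX- rats. Slc6a9, the glycine transporter of glia, had 9.58, 9.57, 10.33, 10.27 and 10.48 in SCI/TMX- rats, against 11.19, 11.09, 11.25, 11.31 and 11.29 in Sham/TMX- rats. Neither gene overlapped, and for Slc6a9 animals 13c and 15c were about 0.7 units below the other injured rats. Gabra5, Gabra2 and Slc6a5, the glycine transporter of inhibitory neurons, fell by 1.08, 0.85 and 0.86.

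Cholinergic and motor neuron genes fell in 9 of 15. Chrm2, the muscarinic autoreceptor, had 5.61, 5.63, 6.17, 5.91 and 6.01 in SCI/TMX- rats, against 7.27, 7.40, 7.14, 7.35 and 7.24 in Sham/TMX- rats, and no injured rat reached the sham range. Slc18a3, which loads acetylcholine into vesicles, and Slc5a7, which takes up choline, fell by 1.06 and 1.04, and Ache by 0.70, while Mnx1, a factor of developing motor neurons, had 0.20 without a pass. Receptors for monoamines fell in 10 of 25 and rose in 2: Adra1a, Htr1f and Drd2 fell by 1.11, 1.06 and 0.82, and Htr2b, a serotonin receptor of vessels and myeloid cells, rose by 0.88.

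Neuropeptides rose more often than they fell, with 8 of 24 higher and 4 lower. Trh, thyrotropin-releasing hormone, had 4.64, 5.06, 5.20, 5.31 and 5.10 in SCI/TMX- rats, against 2.77, 3.26, 2.98, 3.39 and 3.55 in Sham/TMX- rats, and Gal, galanin, which is induced in injured neurons, had 7.22, 7.15, 7.48, 7.63 and 7.53 in SCI/TMX- rats, against 5.51, 6.07, 5.88, 5.74 and 6.19 in Sham/TMX- rats. For both peptides the injured rats were all above the sham rats. Crh rose by 0.79, and Nxph1, a secreted ligand of neurexins, fell by 0.65. Genes of axon growth rose in 9 of 16: Gap43, a protein of growing axons, had 8.94, 9.29, 8.87, 9.11 and 8.82 in SCI/TMX- rats, against 8.01, 7.87, 7.99, 8.00 and 8.05 in Sham/TMX- rats, and rose with no overlap, while Stmn1 fell by 0.52. Guidance genes fell in 19 of 42 and rose in 6. Sema3a, a repellent of axons, had 5.10, 4.69, 5.12, 4.60 and 4.99 in SCI/TMX- rats, against 5.95, 5.82, 5.82, 5.96 and 5.86 in Sham/TMX- rats, with all 5 rats below the sham range; Sema3c and Sema7a rose by 0.78 and 0.77, and Lingo1, a part of the receptor for myelin inhibitors, fell by 0.84. Ephrins and their receptors fell in 7 of 16, with Epha4 and Ephb1 at -0.66 and -0.68.

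Ion channels gave long lists with the same lean. Sodium and calcium channels fell in 14 of 20 genes and rose in 0. Scn1a, a sodium channel of interneurons and motor neurons, had 7.06, 7.16, 7.40, 7.08 and 7.52 in SCI/TMX- rats, against 8.36, 8.36, 8.17, 8.59 and 8.21 in Sham/TMX- rats. The groups were separate, and Scn8a, Cacna1b and Cacnb4 fell by 0.61, 0.65 and 0.61. Over the whole potassium channel family, 45 of 86 genes fell and 4 rose (median -0.34). This family is defined by symbol and also holds genes that are not channels, such as the calcium sensor Kcnip3. Kcna2, a channel beside the node of Ranvier, had 7.74, 7.84, 8.16, 7.79 and 8.10 in SCI/TMX- rats, against 9.02, 9.00, 9.12, 9.30 and 8.99 in Sham/TMX- rats, and lay below the sham range in all 5 injured rats. Kcnh7 and Kcnip4 fell by 1.38 and 1.16. Kcnn4, a calcium-activated channel of leukocytes and activated microglia, was the highest of the family with 3.67, 4.13, 4.03, 3.81 and 4.31 in SCI/TMX- rats, against 2.92, 3.21, 3.44, 3.43 and 2.91 in Sham/TMX- rats, and it rose in every rat beyond the sham range. Of 12 pumps and ion transporters 11 fell: Slc24a2, Atp2b3 and Atp2b2, which remove calcium from neurons, fell by 1.03, 0.86 and 0.74. Protocadherins, adhesion proteins that give neurons identity, fell in 13 of 23 (8 without animals 13c and 15c). Among 307 solute carriers 27 rose and 84 fell, with Slco2a1, the prostaglandin carrier, at 2.12 and Slc22a8, an organic anion carrier of the barrier, at -1.71.

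Astrocytes gave 2 opposite lists. Genes of reactive astrocytes rose in 21 of 23 members and fell in 0 (median 2.01), although many of them are also made by leukocytes and vessels. Gfap, the filament by which reactive astrocytes are usually recognised, had 11.65, 11.59, 11.45, 11.43 and 11.38 in SCI/TMX- rats, against 11.38, 11.30, 11.13, 11.21 and 11.47 in Sham/TMX- rats; the groups overlapped and its log2 fold change of 0.20 ± 0.09 (SE) did not pass (adjusted p = 0.0733), but it passed without sham animal 6a (log2 fold change 0.25, adjusted p = 0.0373). Without animals 13c and 15c the log2 fold change of Gfap was 0.12 (limma, adjusted p = 0.37). Genes of astrocyte homeostasis fell in 20 of 23 (median -0.67). Grm3, the metabotropic glutamate receptor of astrocytes, had 5.57, 5.92, 5.78, 5.34 and 6.07 in SCI/TMX- rats, against 7.44, 7.47, 7.66, 7.41 and 7.38 in Sham/TMX- rats (log2 fold change -1.74 ± 0.13, SE). More than 1 unit separated the groups. Gjb6, a gap junction protein, had 7.80, 7.73, 8.27, 7.51 and 7.98 in SCI/TMX- rats, against 9.54, 8.82, 9.64, 9.88 and 9.78 in Sham/TMX- rats, and Slc4a4, a bicarbonate carrier, had 9.27, 9.28, 9.32, 9.05 and 9.50 in SCI/TMX- rats, against 10.43, 10.26, 10.39, 10.45 and 10.34 in Sham/TMX- rats. Both lay below the sham range in all 5 injured rats. Cldn10 and Gpr37l1 fell by 1.57 and 1.04. Slc1a2, the main glutamate transporter, had a log2 fold change of -0.13 without a pass. The 1 member that rose was Glul, glutamine synthetase, with 11.74, 11.60, 12.01, 11.80 and 11.77 in SCI/TMX- rats, against 11.41, 11.38, 11.47, 11.55 and 11.42 in Sham/TMX- rats, and the shift of 0.34 was seen in every rat. Genes of water and potassium clearance fell in 10 of 18: Dmd, whose short form anchors channels at astrocyte endfeet, had 6.86, 5.84, 7.20, 7.40 and 7.39 in SCI/TMX- rats, against 8.43, 8.14, 8.50, 8.33 and 8.38 in Sham/TMX- rats, with 15c lowest, and Kcnj16, Kcnj10 and Aqp4 fell by 1.28, 0.73 and 0.70. Trpv4, a channel opened by swelling, rose by 0.67.

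In the myelin list 18 of 25 genes fell, but not those of the main structural proteins. Mbp had 12.32, 12.35, 12.43, 12.30 and 12.32 in SCI/TMX- rats, against 12.44, 12.52, 12.38, 12.38 and 12.47 in Sham/TMX- rats, and Mag and Sox10 had log2 fold changes of -0.06 and -0.03; none of these 3 passed. Omg, a surface protein of oligodendrocytes and neurons, had 7.69, 7.42, 8.40, 8.15 and 8.67 in SCI/TMX- rats, against 9.57, 9.46, 9.55, 9.58 and 9.76 in Sham/TMX- rats. Ugt8, the enzyme of galactosylceramide synthesis, had 9.22, 9.38, 8.96, 8.95 and 8.85 in SCI/TMX- rats, against 10.05, 10.17, 10.06, 10.06 and 10.30 in Sham/TMX- rats, and Gpr37, a receptor of mature oligodendrocytes, had 8.94, 8.86, 8.95, 8.81 and 9.01 in SCI/TMX- rats, against 10.14, 10.12, 10.21, 10.02 and 10.08 in Sham/TMX- rats. In all 3 genes every injured rat was below every sham rat, and in Ugt8 animals 13c and 15c were the highest injured rats. Evi2a and Ermn fell by 1.31 and 0.90. Of 13 precursor genes 4 fell and 1 rose, or 2 without 13c and 15c: Gpr17, a receptor of cells about to differentiate, had 7.82, 8.03, 7.96, 7.67 and 8.04 in SCI/TMX- rats, against 8.96, 8.98, 9.00, 9.12 and 9.23 in Sham/TMX- rats, with no overlap, while Pdgfra and Cspg4 had 0.03 and 0.06 without a pass. Homeostatic microglia genes fell in 10 of 18 and rose in 2. Gpr34 had 4.89, 4.58, 5.39, 5.26 and 5.01 in SCI/TMX- rats, against 7.05, 6.52, 6.44, 6.70 and 7.13 in Sham/TMX- rats, P2ry13 fell by 1.27, P2ry12 by 1.00 and Tmem119 by 0.64, and no injured rat overlapped the sham range for Gpr34. P2ry6, a receptor of phagocytosis, rose by 0.61. Of the 5 microglia markers 3 fell and 1 rose, and the one that rose was Aif1 (0.92), with every injured rat above every sham rat. Ependymal genes mostly did not pass, with 3 of 15 lower (1 without animals 13c and 15c).

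Vessel genes moved in both directions. Genes of activated endothelium rose in 15 of 21 and fell in 1, while the endothelium and barrier list rose in 5 and fell in 8 of 26. Pecam1 and Cdh5, adhesion proteins between endothelial cells, rose by 1.30 and 0.74, and Cldn5, the claudin of the barrier, had -0.04 without a pass. Slco1c1, the thyroid hormone carrier of barrier endothelium, had 6.68, 6.69, 6.07, 6.13 and 6.04 in SCI/TMX- rats, against 8.21, 8.43, 8.58, 8.36 and 8.01 in Sham/TMX- rats, and Itm2a, a membrane protein of the same cells, had 5.83, 5.79, 5.49, 5.59 and 5.27 in SCI/TMX- rats, against 7.57, 7.53, 7.63, 7.66 and 7.44 in Sham/TMX- rats. Both fell by about 2 units with no overlap, and 13c and 15c were the highest of the injured rats in each. Vcam1, an adhesion molecule for leukocytes, fell by 0.63. Of 21 genes of pericytes and perivascular fibroblasts 6 rose and 5 fell: Mgp, an inhibitor of calcification in vessel walls, had 9.21, 9.10, 8.95, 9.02 and 8.88 in SCI/TMX- rats, against 6.90, 6.54, 7.14, 7.11 and 7.01 in Sham/TMX- rats, and lay above the sham range in every injured rat, whereas Rgs5, a pericyte gene, had 7.47, 7.45, 7.32, 7.03 and 7.25 in SCI/TMX- rats, against 8.03, 8.35, 8.32, 8.38 and 7.89 in Sham/TMX- rats, and lay below the sham range in every injured rat.

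Of the named genes called higher 136 stood in no list, and of those called lower 135. Crym, a thyroid hormone-binding protein, had 7.07, 7.13, 7.25, 7.27 and 6.85 in SCI/TMX- rats, against 3.49, 3.77, 4.57, 3.96 and 3.80 in Sham/TMX- rats, and lay above the sham range in all 5 injured rats (log2 fold change 3.20 ± 0.20, SE). Lgi1, a secreted synaptic protein mutated in epilepsy, fell by 1.48, and Dao, an astrocyte enzyme that degrades D-amino acids, fell by 1.44. Receptor families of the nose hardly moved: none of 32 olfactory receptors passed in either direction, and of 98 vomeronasal receptors 2 rose and 1 fell (0 and 2 without 13c and 15c). Zinc finger genes named by symbol fell in 32 of 144 (22.2%, near the 19.7% of all named genes). They rose in 7 (4.86%, against 13.6%). Without animals 13c and 15c, 22 fell and 4 rose. Zfp365 and Zfp398 were among those that fell over all 10 rats, by 0.75 and 0.78.

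The median SD of a transcript was 0.205 over the 5 SCI/TMX- rats and 0.157 over the 5 Sham/TMX- rats, without a test. Without animals 13c and 15c it was 0.136 over the other 3 SCI/TMX- rats. This value comes from fewer rats, left after the 2 that stood apart were removed, so it does not compare with that of the sham rats. For 244 of the 459 transcripts called higher (53.2%) animals 13c and 15c both lay below the other 3 injured rats, and the same held for 122 of the 249 called lower (49.0%), against 20.2% of all transcripts. Both lay above the other 3 in 28 transcripts called higher (6.1%) and 18 called lower (7.23%), against 19.0% of all transcripts. Among called transcripts they thus had smaller rises and larger falls more often than the reverse. The calls were made with these 2 rats included, and a transcript in which they are low passes -1 more easily. The share among transcripts called lower therefore partly follows from that choice, and 177 were called lower without them. Several called genes of wide spread had 13c and 15c below the other injured rats. Kcnip3, a calcium sensor of neurons, had 6.05, 5.85, 8.12, 7.98 and 7.98 in SCI/TMX- rats, against 8.80, 8.51, 8.67, 8.99 and 9.10 in Sham/TMX- rats, with 13c and 15c about 2 units below the other injured rats. Nkain2 had 7.91, 7.46, 9.50, 9.42 and 9.55 in SCI/TMX- rats, against 9.68, 9.81, 9.65, 9.84 and 9.88 in Sham/TMX- rats, Ppif, a mitochondrial cyclophilin, had 5.86, 5.65, 7.59, 7.32 and 7.38 in SCI/TMX- rats, against 7.77, 7.38, 7.66, 8.03 and 8.13 in Sham/TMX- rats, and Lrrc61 had 6.30, 5.61, 7.63, 7.40 and 7.28 in SCI/TMX- rats, against 8.01, 7.73, 8.01, 8.26 and 8.26 in Sham/TMX- rats. In Nkain2, Ppif and Lrrc61 the other 3 injured rats lay at or just below the sham values. Without animals 13c and 15c the log2 fold changes of Nkain2 and Ppif were -0.29 (adjusted p = 0.124) and -0.36 (adjusted p = 0.0755), and that of Lrrc61 was -0.61 (adjusted p = 0.00104, limma). Among higher genes, Folr2, a folate receptor of macrophages, had 4.38, 4.14, 6.49, 5.77 and 5.42 in SCI/TMX- rats, against 3.80, 3.40, 3.57, 4.46 and 4.48 in Sham/TMX- rats, and Lrrc15 had 3.20, 3.07, 5.09, 4.46 and 4.87 in SCI/TMX- rats, against 3.12, 2.39, 2.90, 3.12 and 3.07 in Sham/TMX- rats; in both, 13c and 15c lay within or near the sham range. A different pair stood out for Ccr2, the receptor for Ccl2 on monocytes, with 5.16, 5.61, 5.93, 7.33 and 7.21 in SCI/TMX- rats, against 4.67, 4.96, 4.36, 4.54 and 4.81 in Sham/TMX- rats, and for Trem1, an amplifying receptor of neutrophils and monocytes, with 5.39, 4.81, 5.56, 7.05 and 6.73 in SCI/TMX- rats, against 3.91, 3.27, 3.44, 3.63 and 3.76 in Sham/TMX- rats: there 17c and 18c were highest. Alas2, the red cell enzyme of haem synthesis, had 4.02, 4.25, 5.42, 5.42 and 6.02 in SCI/TMX- rats, against 4.20, 3.68, 3.93, 4.01 and 3.58 in Sham/TMX- rats. Animals 13c and 15c were lowest of the injured rats in Alas2, as they were in Hbb. The depth of the lesion in each rat is not given in the sources used here.

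**Figure D4:**
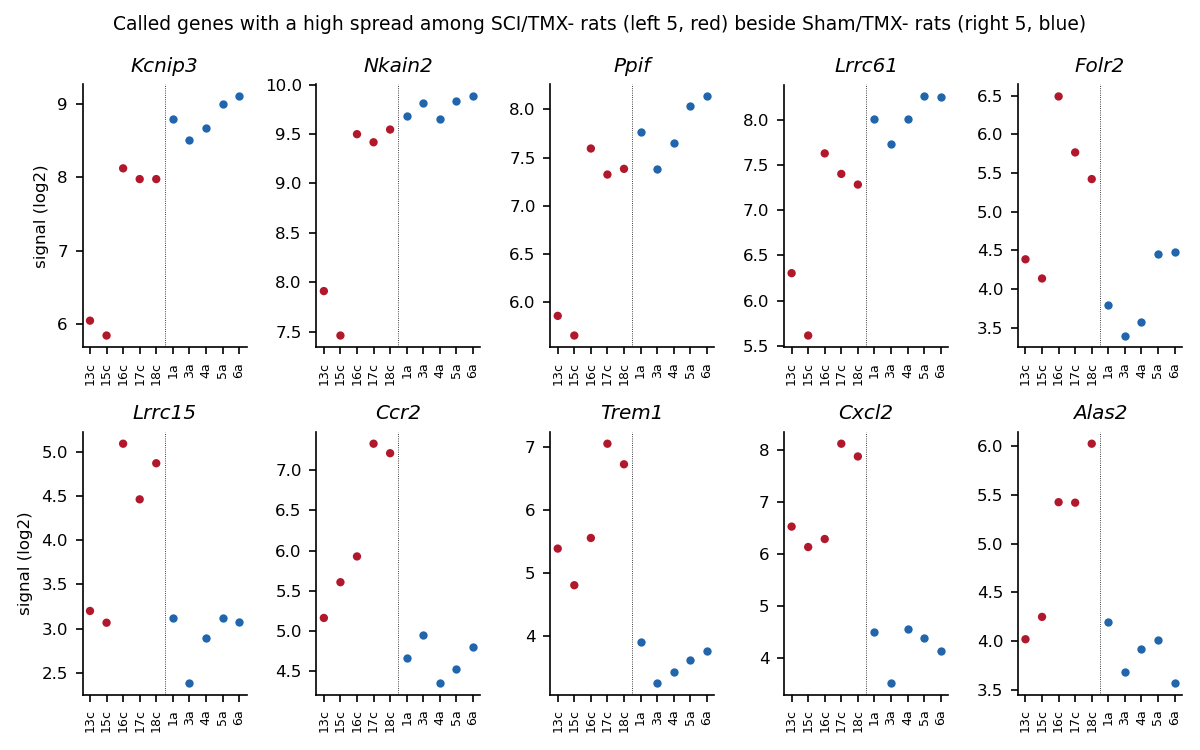
Each panel gives the log2 signal of 1 called gene in each rat, with the 5 SCI/TMX- animals on the left in red and the 5 Sham/TMX- animals on the right in blue; vertical scales differ and do not start at 0. Animals 13c and 15c lie below the other injured rats for Kcnip3, Nkain2, Ppif, Lrrc61, Folr2 and Lrrc15, while animals 17c and 18c lie highest for Ccr2, Trem1 and Cxcl2.

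The series holds a second set of injured and sham rats, 6 SCI/TMX+ and 6 Sham/TMX+ that received TMX at 5 mg/kg instead of vehicle, and this contrast shares no array with the one above. All 459 transcripts called higher without TMX had a positive log2 fold change under TMX, 452 of them with an adjusted p under 0.05 and 372 also past the fold change of 1. All 249 called lower had a negative one with an adjusted p under 0.05, and 150 were also past -1. The median log2 fold change was 1.36 without TMX and 1.36 with it for transcripts called higher, and for transcripts called lower it was -1.14 without TMX and -1.08 with it; the transcripts were chosen by the values without TMX. The difference of the 2 contrasts passed an adjusted p under 0.05 for 0 transcripts (limma), with 0.229 the lowest, and 1585 (6.84%) had an unadjusted p under 0.05, 87 of them called. Among the genes with the smallest p of the difference, Lcn2, an iron-binding protein of acute inflammation, rose by 3.62 without TMX and 5.40 with it, and Mmp12, the elastase of macrophages, had log2 fold changes of 1.47 without and 0.41 with it. Adm, adrenomedullin, had 0.94 without and 1.68 with it. None of these differences passed after adjustment.

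**Figure D5:**
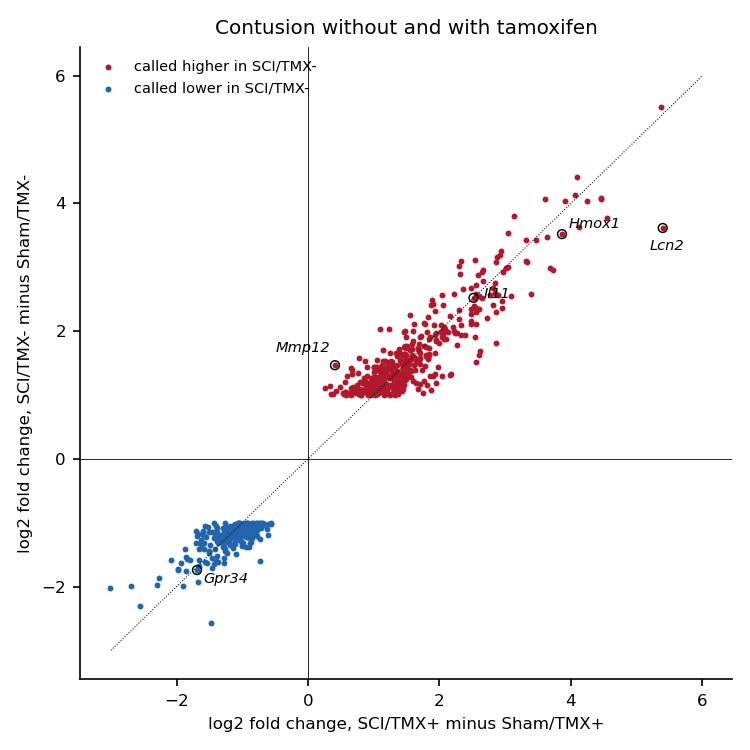
Each point is a transcript called in SCI/TMX- against Sham/TMX-, with its log2 fold change in that contrast on the vertical axis and its log2 fold change in SCI/TMX+ against Sham/TMX+ on the horizontal axis; the dotted line marks equal values. All red points (called higher) lie above 0 and all blue points (called lower) below 0 on both axes, and Lcn2 lies furthest to the right of the line.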

How the data were processed

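RNA of 1 spinal cord segment per rat was hybridized to a Clariom S rat array. The deposited values are log2 signals: per the methods of the authors, the arrays were background-corrected, quantile-normalized and summarised per transcript with the RMA function of oligo 1.56, which also evens out differences in overall signal between arrays. The median signal of an array lay between 5.409 and 5.475. Which genome build the array was designed on is not given in the sources used here. Array precision is limited by the number of arrays, 5 per group, of 6 randomised rats in each after 1 sample per group was left out by the authors for RNA quality. Nothing in the sources ties rats to a batch.

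Group means were fitted with limma 3.58.1 (R 4.3.3) over all 22 arrays and 4 groups, with 18 residual and 6.995 prior degrees of freedom, and 2-sided moderated tests were adjusted by Benjamini-Hochberg over the 23188 transcripts. Groups come from the sample titles. In simulated data with the spread of these arrays, log2 changes of 0.7, 1, 1.5 and 2 were called for 2%, 50%, 100% and 100% of 50 transcripts each in SCI/TMX- minus Sham/TMX- over 23188 transcripts, and 0 unchanged transcripts were called. Symbols were taken from the platform annotation, and for 138 transcripts from a supplementary table of called genes. A further 443 transcripts have the same 22 values as another.

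The gene lists and the genes to be named were chosen with earlier results of these data known. Named were called genes ranked 11 to 40 by log2 fold change in each direction, in each list up to 4 members by size of the statistic and up to 2 without a pass or against the list, the 10 called genes with the highest SD among injured rats, the 10 with the highest sham signal, the 10 with the smallest p for the difference from the contrast with TMX, and the cell markers. Genes named beside this rule (Tnf, Ptgs2, Vim, Igf1, Rbm3, Kcnh7, Ifnb1 and Ifng) were chosen after their values were seen. Alternatives were the fit on the 10 arrays alone, a trend with robust variance, a filter that left out 50% of the transcripts by signal, array medians subtracted, a further quantile normalization, weights per array, a block for replicate number, 1 transcript per gene, a test against a log2 fold change of 0.5 (treat), both sham groups as control, each array left out, and animals 13c and 15c left out. The values of 1 gene are not reported here; it is counted in the totals.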

Additional observations from a re-analysis of the deposited data

Results flagged for a closer look

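In groups of 5 rats, a value was taken up here where its gap to the nearest other rat exceeded 0.71 of the range of the group. This held for 20 of 634 groups of a named gene and 4 of 184 groups of a list mean, where chance alone gives about 1 in 20. Animal 4a had 5 of these values, animal 15c had 4, and animal 5a had 0. No transcript passed the adjusted test of the difference between the contrasts without and with TMX.

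Among SCI/TMX- rats, animal 15c was lowest for Nfil3 (6.505), Timp4 (6.274) and Tlr9 (3.516), and for the mean of the homeostatic microglia list (5.621, against 5.827 to 5.901 in the other injured rats). Animal 13c was lowest for Herpud1 (6.398) and highest for Homer1 (7.679). Animal 16c was lowest for Prx (7.153) and Tnfaip6 (8.369). Animal 17c was lowest for Notch1 (6.784) and highest for RT1-A1 (7.367) and Sema7a (8.937), and animal 18c was highest for Grin2b (5.849).

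Among Sham/TMX- rats, animal 4a was highest for Cldn5 (8.502) and lowest for Cox6a2 (5.068) and Cxcl11 (2.289), and lowest for the list means of class I antigen presentation (5.835) and proteasome subunits (7.82). Animal 3a was lowest for P2ry6 (5.653), for Slc22a8 (6.608, against 7.382 to 7.532 in the other sham rats) and for the mean of the coagulation and plasminogen list (4.981). Animal 1a was lowest for Bcan (8.965) and highest for Tnc (4.166), and animal 6a was highest for Bhlhe40 (8.058) and Hmox2 (9.707).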

How the results depend on the processing

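Over the alternatives, 6490 of 6586 values of 317 genes named here counted as unchanged. For a gene that passed, this meant the same direction and again a pass. For a gene that did not pass, it meant again no pass and a shift of less than 1 SD, whatever the sign. Of the other values, 89 lost the threshold, 86 of them in the test against a log2 fold change of 0.5 (treat). A further 5 gained it, 2 moved by more than 1 SD and 0 reversed. Many of these genes were named for a large fold change or statistic in the same data, so their count does not measure how stable the results are. Without animals 13c and 15c, C3 (-0.48), Nkain2 (-0.29) and Ppif (-0.36) lost the threshold. The median SD was then 0.1364 over the 3 injured rats left instead of 0.2052 over 5, and the second principal component held 8.63% instead of 15.14% of the variance. Tested against a log2 fold change of 0.5 (treat), which is stricter by construction, 523 transcripts were higher and 359 lower, and 3 lists instead of 34 had 50% of members in 1 direction. Gfap also passed with a trend and robust variance (limma, adjusted p = 0.0145), without low signals (adjusted p = 0.0326) and with both sham groups (adjusted p = 0.0208). Apart from these and the fit without sham animal 6a, it did not pass. Its adjusted p was 0.154 on the 10 arrays alone, 0.145 with array weights and 0.37 without animals 13c and 15c. Grm2 passed with both sham groups (log2 fold change 0.31). Leaving out 1 array gave 680 to 762 called transcripts, 432 to 492 higher and 202 to 313 lower, 2671 to 3010 higher and 3723 to 4159 lower by adjusted p alone, 31 to 35 lists, 5183 to 5681 transcripts without overlap, a median SD of 0.1777 to 0.2084 and a second component of 12.08% to 16.82%. Replicate numbers do not pair the rats: the correlations of same-numbered deviations were -0.0035, 0.14, -0.11, 0.033 and 0.075, and 2 of 5 were highest with their own number. With the replicate block, 459 transcripts were called higher and 249 lower. The difference from the contrast with TMX passed for 0 transcripts in the 4 fits run for it (as reported, with a trend and robust variance, with the replicate block, and without 13c and 15c).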
